A study of Sus scrofa and Rattus norvegicus with 8 samples.

Results

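The transcripts examined were 9 genes of adipokine biology in pig subcutaneous fat: the secreted factors ADIPOQ, LEP, RBP4, NAMPT, APLN and ANGPTL4, and the receptors ADIPOR1, ADIPOR2 and LEPR. They were taken by symbol from the 25880 Ensembl gene IDs of the pig expression table, of which 14844 were nuclear genes with a symbol. Values were obtained for 8 of the 9, and APLN, which encodes apelin, was not analysed here. The samples were the upper layer of backfat of 6 adult female Bama pigs, 2 years old, given no treatment and unfed during the night before slaughter. They form 1 group with no control group, and 2 pooled rat libraries that belong to the same series were not used.

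Adipokines are hormones and other secreted proteins of fat tissue. Leptin, the product of LEP, reports fat stores to the brain through LEPR, and adiponectin, the product of ADIPOQ, raises insulin sensitivity through ADIPOR1 and ADIPOR2. ANGPTL4 inhibits lipoprotein lipase, RBP4 carries retinol in blood, and NAMPT is an enzyme of NAD synthesis that is also found outside cells, where it is called visfatin.

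Expression was measured in TPM, an abundance of transcripts that is corrected for their length, sums to 1000000 in each library and can be compared between genes. TPM keep no read counts, so the depth of the libraries is unknown. Named nuclear genes held 24.1% to 26.3% of the TPM in replicates 1, 2, 3 and 6, but 3.34% in replicate 4 and 4.73% in replicate 5. IDs without a symbol held 96.5% in replicate 4 and 95.0% in replicate 5, against 54.7% to 62.9% in the others. Mitochondrially encoded genes held 0.209% and 0.298% in replicates 4 and 5, against 10.8% to 21.2% in the others. The composition of replicates 4 and 5 thus differed in more than the named nuclear share. Each level is therefore given as deposited and as rescaled TPM, for which the named nuclear genes of every library were set to sum to 1000000. The rescaling multiplied values by 3.80 to 4.15 in 4 libraries, by 29.9 in replicate 4 and by 21.1 in replicate 5. After it the median over named nuclear genes above 0 in every pig was still lower in replicates 4 and 5, at 16.1 and 15.5 rescaled TPM against 21.8 to 25.6 in the others. The tissue label was checked with cell type markers. All 8 adipocyte markers were detected in every library (summed rescaled TPM 17795 to 34629), against sums of at most 40.9 for skin epithelium, 12.8 for skeletal muscle and 18.2 for kidney. Blood markers summed to 115 to 969.96, with the highest sum in replicate 4, and liver markers to 74.4 to 1478, with the highest in replicate 5.

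The levels spanned a wide range and had a stable order at its ends. ADIPOQ was the most abundant of the 8 transcripts in all 6 pigs and LEPR the least abundant in all 6. By mean rescaled TPM the order was ADIPOQ, ADIPOR2, LEP, NAMPT, ANGPTL4, ADIPOR1, RBP4 and LEPR. The median of the 8 means was 220 rescaled TPM, against 16.7 over all named nuclear genes and 34.8 over those detected in every library. Transcripts of 7 of the 8 genes were detected, at over 0.1 TPM as deposited, in every library, against 67.2% of named nuclear genes. The exception was LEPR, at 0.0835 TPM in replicate 5. On the rescaled scale this limit was stricter in replicates 4 and 5 (2.99 and 2.11) than elsewhere (0.380 to 0.415), and the 1.76 rescaled TPM of LEPR in replicate 5 would have passed in replicates 1, 2, 3 and 6.

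**Figure D1:**
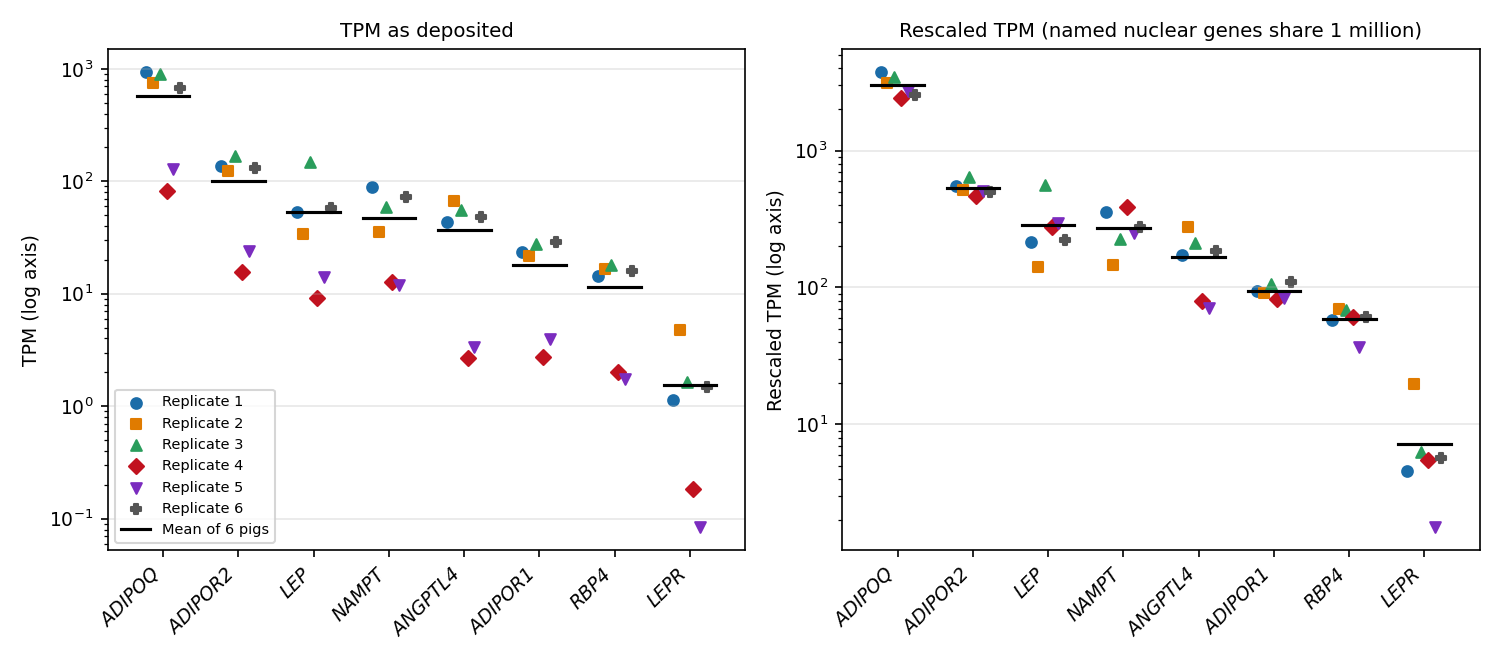
TPM of each gene in each of the 6 pig libraries, as deposited on the left and rescaled over named nuclear genes on the right, both on log axes, with a bar at the mean of the 6 pigs. As deposited, replicates 4 and 5 hold the 2 lowest values of all 8 genes, whereas after rescaling ADIPOQ stays between 2437 and 3746 and LEPR runs from 1.76 to 19.7.

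Among the secreted factors, ADIPOQ (ENSSSCG00000039103; Sscrofa11.1 chromosome 13, 124633906 to 124646237, plus strand, 4 exons) had 936, 745, 897, 81.4, 128 and 672 TPM as deposited in replicates 1 to 6. Rescaled, these were 3746, 3093, 3426, 2437, 2700.04 and 2552, a mean of 2992 ± 520 (SD, n = 6). The highest library was thus 1.54 times the lowest, and ADIPOQ ranked between 21 and 39 among the 14844 named nuclear genes of each library. It held 79.1% ± 3.26 (SD, n = 6) of the summed TPM of the 5 secreted factors, with 75.3% in replicate 4 as the lowest share and 83.0% in replicate 2 as the highest.

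LEP (ENSSSCG00000040464; chromosome 18, 20106867 to 20124071, minus strand, 2 exons) had 214, 142, 564, 274, 296 and 222 rescaled TPM in replicates 1 to 6. Replicate 3 was the high library and replicate 2 the low one, 3.97 times apart. The mean was 285 ± 147 (SD, n = 6), and 230 without replicate 3. The share of LEP in the summed secreted factors was 7.51% ± 3.16 (SD, n = 6), from 3.81% in replicate 2 to 12.5% in replicate 3. LEP ranked from 229 in its best library to 1423 in its worst.

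NAMPT (ENSSSCG00000015435; chromosome 9, 106119896 to 106162126, minus strand, 13 exons) had 356, 146, 226, 384, 250.3 and 277 rescaled TPM, with replicate 4 highest and replicate 2 lowest. Its mean was 273 ± 87.4 (SD, n = 6). ANGPTL4 (ENSSSCG00000013599; chromosome 2, 70905767 to 70912892, minus strand, 7 exons) had 173, 278, 212, 79.6, 70.8 and 183 rescaled TPM, so replicate 2 was highest and replicates 4 and 5 lay below the other 4 libraries. The mean of ANGPTL4 was 166 ± 79.5 (SD, n = 6), and 212 without replicates 4 and 5. RBP4 (ENSSSCG00000010479; chromosome 14, 105037360 to 105044552, minus strand, 6 exons) had 57.3, 69.5, 68.8, 60.8, 37.0 and 60.4 rescaled TPM. Replicate 5 lay below the other 5 libraries, which were close to each other. RBP4 was the least abundant of the secreted factors in all 6 pigs, at 1.58% ± 0.336 (SD, n = 6) of their sum.

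The adiponectin receptors differed in level from each other but varied little between pigs. ADIPOR2 (ENSSSCG00000000757; chromosome 5, 68755789 to 68807247, plus strand, 9 exons) had 548, 516, 644, 467, 508 and 494 rescaled TPM, a mean of 529 ± 62.1 (SD, n = 6). ADIPOR1 (ENSSSCG00000010931; chromosome 10, 24907491 to 24923540, minus strand, 8 exons) had 93.4, 90.6, 107, 82.2, 84.3 and 109.7 rescaled TPM, a mean of 94.5 ± 11.4 (SD, n = 6). No library of ADIPOR1 reached the lowest library of ADIPOR2. The ratio of ADIPOR2 to ADIPOR1 was 5.86, 5.69, 6.04, 5.68, 6.02 and 4.50 in replicates 1 to 6, with the smallest SD of any pair, 0.16 on the log2 scale.

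LEPR (ENSSSCG00000025188; chromosome 6, 146802297 to 146896152, minus strand, 21 exons in the longest of 7 RefSeq transcript models) had 4.58, 19.7, 6.24, 5.50, 1.76 and 5.67 rescaled TPM. Replicate 2 stood high and replicate 5 low, and the other 4 libraries lay between 4.58 and 6.24. The mean of 7.24 ± 6.29 (SD, n = 6) became 4.75 without replicate 2. The value is one per gene, so the short and long receptor forms were not separated. LEPROT, a neighbouring gene on the same strand that encodes a leptin receptor trafficking protein, is annotated without overlap 78488 bases away, and it had 84.7 ± 14.9 rescaled TPM (SD, n = 6).

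Ratios between genes within a library do not depend on the scaling, so all 28 pairs of the 8 genes were tested with an exact two-sided sign-flip permutation test of the mean log2 ratio over the 6 pigs. The order was the same in every pig for 24 pairs, and these 24 passed, each at the smallest p that 6 pigs allow (exact p = 0.03125, Benjamini-Hochberg adjusted p = 0.0365). That p needs the same order in all 6 pigs, so passing restates the common order. Pairs that share a gene are also not independent. The other 4 pairs were LEP with NAMPT, LEP with ANGPTL4, NAMPT with ANGPTL4, and ANGPTL4 with ADIPOR1. Hence among neighbours in the order of the means, LEP and NAMPT, NAMPT and ANGPTL4, and ANGPTL4 and ADIPOR1 did not differ beyond their spread.

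ADIPOQ exceeded LEP 11.4-fold as a geometric mean of the within-library ratios. The ratio was 17.5, 21.8, 6.08, 8.88, 9.13 and 11.5 in replicates 1 to 6, lowest where LEP was highest. ADIPOQ exceeded its receptor ADIPOR2 by 5.61-fold, between 5.16 and 6.84 in every pig, and its receptor ADIPOR1 by 31.5-fold, between 23.3 and 40.1. LEP exceeded LEPR 46.4-fold, with ratios of 46.7, 7.23, 90.3, 49.9, 168 and 39.1 in replicates 1 to 6. The ratio was lowest in replicate 2, where LEPR was highest and LEP lowest, and highest in replicate 5, where LEPR was lowest. Its SD of 1.52 on the log2 scale was the largest of the 28 pairs. ADIPOR2 was also above LEP, by 2.03-fold (1.14 to 3.63), and above NAMPT, by 2.02-fold (1.22 to 3.54).

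For the pairs without a common order, LEP and NAMPT had a mean log2 ratio of 0.00 ± 0.73 (SD, n = 6), with LEP higher in 2 pigs and NAMPT in 4 (exact permutation p = 1). LEP was above ANGPTL4 in 5 of 6 pigs (log2 ratio 0.81 ± 1.15, SD; exact permutation adjusted p = 0.162), and so was NAMPT (0.82 ± 1.17, SD; exact permutation adjusted p = 0.162). The exception for both was replicate 2, and without it 26 of the 28 pairs had 1 direction. ANGPTL4 was above ADIPOR1 in 4 pigs (log2 ratio 0.66 ± 0.70, SD; exact permutation adjusted p = 0.14), at ratios of 1.67 to 3.07, and below it in replicates 4 and 5, at 0.969 and 0.839.

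**Figure D2:**
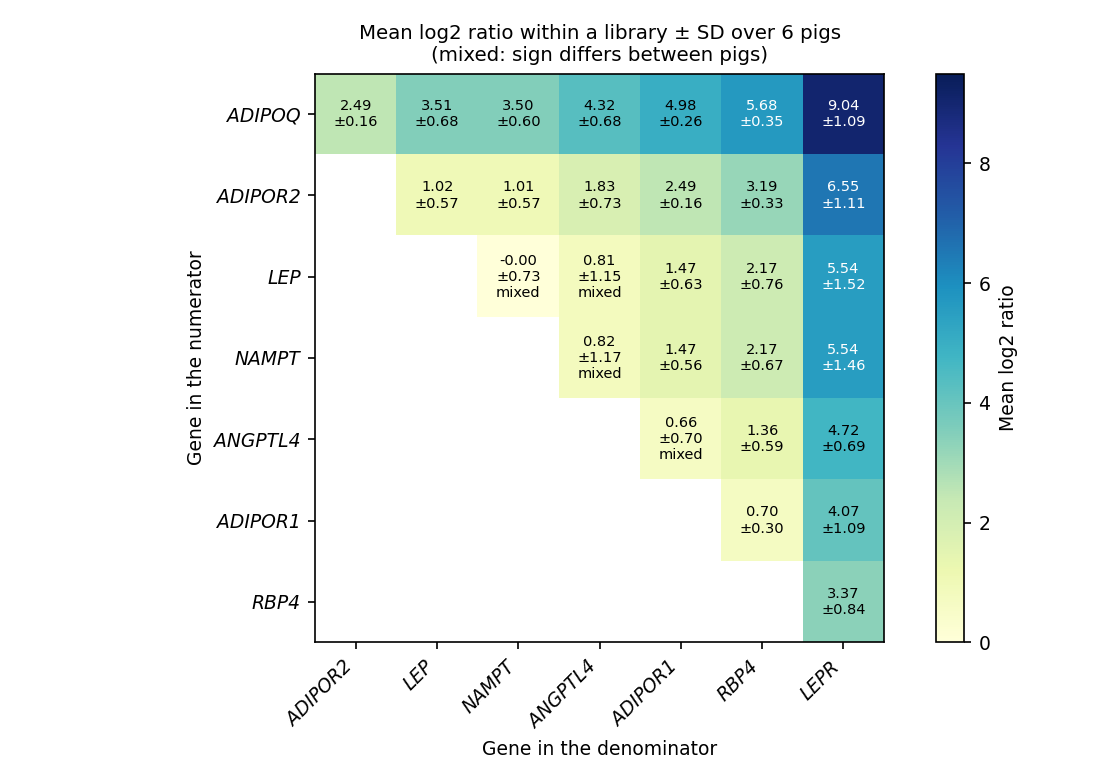
Mean log2 ratio of the row gene to the column gene within a library, with its SD over the 6 pigs, for all 28 pairs. Colour gives the mean log2 ratio and "mixed" marks the 4 pairs whose order differed between pigs; the largest mean ratio is that of ADIPOQ to LEPR, 9.04 ± 1.09.

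The spread between pigs was then set beside that of the 8866 named nuclear genes with a mean of at least 10 rescaled TPM, whose coefficient of variation (CV, the SD as a share of the mean) had a median of 0.282 and quartiles of 0.185 and 0.416. The median CV of the 8 genes was 0.260, and it was 0.201 for the 7 of them that reach the same minimum level. ADIPOR2 (CV 0.117), ADIPOR1 (0.121) and ADIPOQ (0.174) were among the steadier genes, with 7.86%, 8.43% and 22.02% of the comparison genes below them. The CV of ADIPOR2 depended on the scaling, and after median-centring, which divides each library by its median named nuclear gene, it was 0.218, above that of ADIPOQ (0.180), ADIPOR1 (0.169) and RBP4 (0.211). RBP4 (0.201) and NAMPT (0.320) lay nearer the middle, at 29.2% and 58.2%. ANGPTL4 (0.478), LEP (0.514) and LEPR (0.869) varied more, with 82.9%, 86.5% and 99.0% of the comparison genes below them, although LEPR itself lies under the minimum level of that set.

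Single libraries made up much of this spread. Without replicate 3 the CV of LEP was 0.261, without replicate 2 that of LEPR was 0.373, without replicate 5 that of RBP4 was 0.0863, and without replicate 3 that of ADIPOR2 was 0.0582. Without replicates 4 and 5 the CV of ANGPTL4 was 0.224. By Dixon's ratio of the gap to the range, 1 library stood apart for 2 of the 7 genes above the minimum level, LEP and RBP4, against 4.38% of the comparison genes. Replicates 4 and 5 were the lowest pair for 2 of the 7, ANGPTL4 and ADIPOR1, against 48.6% of the comparison genes. This small count was not tested against that share.

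**Figure D3:**
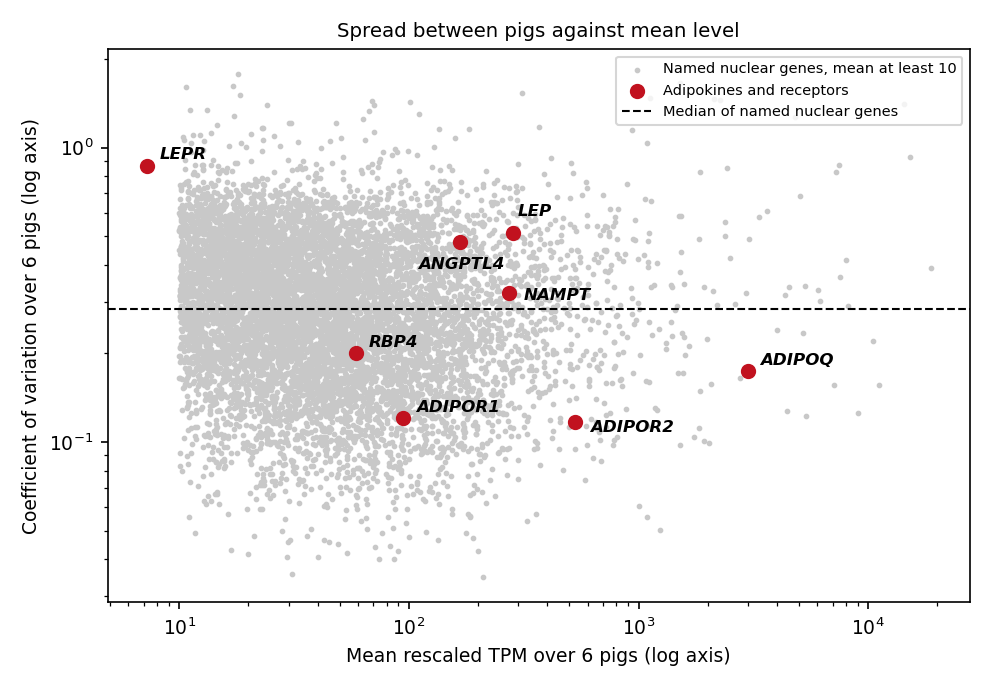
CV over the 6 pigs against mean rescaled TPM, both on log axes, for 8866 named nuclear genes (grey) and the 8 adipokine and receptor genes (red), with a dashed line at the median CV of 0.282. ADIPOQ, ADIPOR1 and ADIPOR2 lie below the line, and LEP, ANGPTL4 and LEPR above it.

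Which library was low depended on the scaling for some genes. After median-centring, ANGPTL4 was still lowest in replicates 4 and 5 (21.5 and 19.7, against 29.3 to 48.1 in the other 4). ADIPOR1, by contrast, was then among its highest there, at 22.2 and 23.5 against 15.7 to 21.2, and RBP4 in replicate 5, at 10.3, was above the 9.72 of replicate 1. ADIPOQ and ADIPOR2 were lowest in replicate 4 as rescaled. After median-centring both were highest in replicate 5 (753 and 141) and lowest in replicate 6 (442 and 85.6). LEP in replicate 3 and LEPR in replicate 2 were the highest libraries of their genes under every scaling used.

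A further scaling, chosen after seeing the data, divided each library by the geometric mean of its 8 adipocyte markers, which differed 1.20-fold between the highest and the lowest library. On this scale the CV of ADIPOR2 was 0.0552, against 0.117 as rescaled and 0.218 after median-centring, and that of ADIPOQ was 0.135. LEP kept a CV of 0.434, NAMPT of 0.330, ANGPTL4 of 0.477 and LEPR of 0.893. The 8 markers did not move together, and single markers differed up to 3.59-fold (LIPE). LIPE, PPARG and PLIN1 were lowest in replicates 4 and 5, whereas CIDEC and ACACA were highest there and FABP4 was highest in replicate 5. The narrow range of the geometric mean thus averages opposed markers, and whether it follows adipocyte content was not tested. In bulk tissue, fewer cells of a type and less RNA per cell cannot be told apart.

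**Figure D4:**
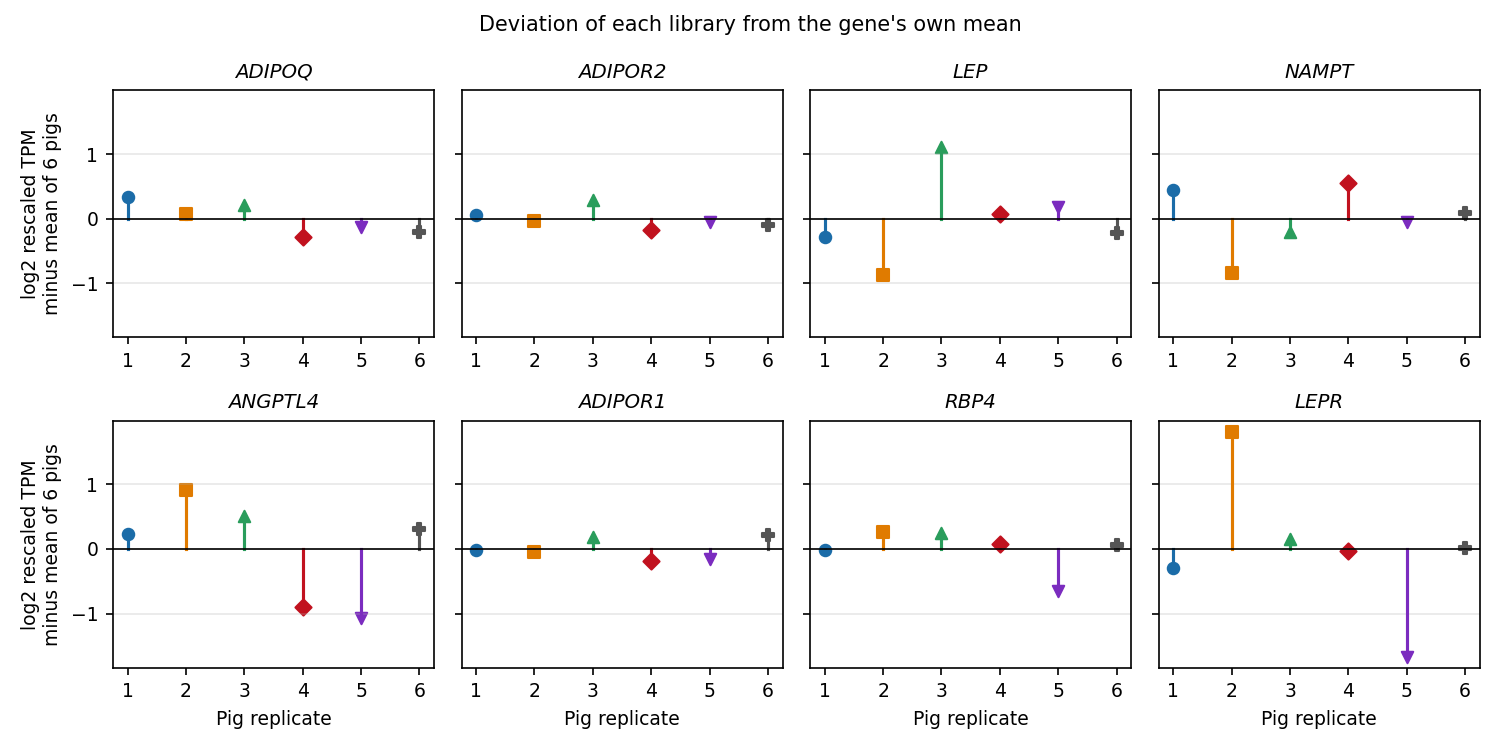
Log2 rescaled TPM of each gene in each pig library minus the gene's mean over the 6 pigs. LEP is highest in replicate 3 and lowest in replicate 2, ANGPTL4 is below its mean in replicates 4 and 5, and LEPR is highest in replicate 2 and lowest in replicate 5.

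Markers of other cell types were set beside these values. As rescaled, replicate 2 held the highest LEPR, ANGPTL4 and RBP4. It also had the highest sum of the 5 endothelial markers, at 1418 rescaled TPM against 704 in replicate 4, the lowest. PECAM1, CDH5, KDR and TEK were each highest in replicate 2, whereas EGFL7 was lowest there (95.7, against 134 in replicate 5). RBP4 in replicate 2 was close to replicate 3 (69.5 and 68.8), and after median-centring RBP4 was highest in replicate 4 (16.4). The sum of the 5 smooth muscle and pericyte markers was also highest in replicate 2, at 1065 against 553 in replicate 4. Of these 5, however, only ACTA2 was itself highest in replicate 2 (458). MYH11, RGS5 and NOTCH3 were highest in replicate 1 (160, 309 and 39.1) and TAGLN in replicate 4 (347). Lymphoid and skeletal muscle markers, at low levels, also had their highest sums in replicate 2 (27.5 and 12.8). By contrast, progenitor and stromal markers had theirs in replicate 1 (15393) and macrophage markers in replicate 6 (805). Replicate 5, with the lowest RBP4, had the highest sum of the 8 liver markers, at 1478 against 74.4 in replicate 6. RBP4 is also a major product of liver. ALB, the defining liver transcript, ran from 47.6 to 1091 rescaled TPM over the libraries and RBP4 from 37.0 to 69.5. The part of these cells in the levels of LEPR, ANGPTL4 and RBP4 was not tested.

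Genes with the most similar pattern over the pigs were sought by the SD of log2(gene/member), which no library factor changes, among 8852 candidate genes. For ANGPTL4 the closest were APC (0.0972), BIN2 (0.102) and CDH5 (0.105), the last of which encodes the endothelial VE-cadherin, against a median SD of 0.674 over the candidates. CDH5 had 158, 226, 159.7, 67.1, 61.1 and 168 rescaled TPM and so shared the low replicates 4 and 5 and the high replicate 2. Replicates 4 and 5 were the lowest pair for 48.6% of the comparison genes. Of the other endothelial markers, PECAM1 and KDR were also lowest in replicates 4 and 5. By contrast, EGFL7 was highest in replicate 5 (134), and TEK in replicate 5 (62.2) was above replicates 1, 3 and 6. For LEP the closest were CDR2 (0.260), CYP4B1 (0.262) and RGS7BP (0.280), against a median of 0.851. For NAMPT they were ASB9 (0.145), MIIP (0.154) and MXD4 (0.173), against 0.703.

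ADIPOQ had closer companions, namely YIF1B (0.0596), SUCLG2 (0.0624) and IGDCC4 (0.0641), against a median of 0.449. ADIPOR2 was followed by SLC23A2 (0.0475) and APLP2 (0.0494), ADIPOR1 by UBL7 (0.0512) and EI24 (0.0531), and RBP4 by AGTPBP1 (0.0513), C1orf52 (0.0898) and MOB1B (0.0923). For LEPR the nearest were C4A (0.437), a complement component, OAS2, an interferon-induced enzyme, and GEM, a small GTP-binding protein (both 0.47), each highest in replicate 2, against a median of 1.05. Without replicates 4 and 5 only 3 of the 24 nearest genes were again among the nearest 3, so the companions are a description of these 6 libraries.

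Lists of partner and signalling genes were then described beside the 67.2% of named nuclear genes detected in every library. All 15 listed genes of leptin signal transduction were detected in every library, with a median of means of 51.7 rescaled TPM, against 34.8 for named nuclear genes detected in every library. The highest means were those of PIK3R1, a regulatory subunit of phosphoinositide 3-kinase (338), the phosphatase PTPN11 (325) and the transcription factor STAT3 (149.7). PIK3R1 ran from 125 to 630 between pigs and was below PTPN11 in replicates 4, 5 and 6. JAK2, the kinase bound to LEPR, had 69.1 ± 7.12 (SD, n = 6) and SOCS3, the feedback inhibitor, 24.5 ± 4.12 (SD, n = 6), so that both were above LEPR in every pig. The ratio of LEPROT to LEPR was 14.9 as a geometric mean and ranged from 4.47 in replicate 2 to 63.1 in replicate 5.

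For adiponectin, 12 of the 13 listed signalling genes were detected in every library, with a median of means of 78.6 rescaled TPM beside the same 34.8. The exception was PPARGC1A, detected in 4 of 6 libraries. Its 0.289 and 0.259 rescaled TPM in replicates 4 and 5 were also under the limit of the other libraries (0.380 to 0.415). The adaptor APPL1, which binds both adiponectin receptors, had 207 ± 33.4 (SD, n = 6) and its relative APPL2 84.3 ± 13.9 (SD, n = 6). CDH13, the T-cadherin that binds adiponectin multimers, had 113 ± 30.4 (SD, n = 6), which was 0.778 to 1.62 times ADIPOR1 in the same library. The AMPK catalytic subunits PRKAA1 and PRKAA2 had 51.0 and 13.8. All 5 genes of adiponectin assembly and secretion were detected in every library, with HSP90B1 (505), P4HB (232) and ERO1A (103) the highest. ADIPOQ was 1.82 times PLIN1, the lipid droplet coat protein of adipocytes (1.47 to 2.17 within a library), whereas LEP was 0.160 times PLIN1 (0.0944 to 0.286).

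For the remaining factors, 13 of the 16 listed receptors and partners could be analysed, of which 10 were detected in every library. LPL, the lipase that ANGPTL4 inhibits, had 1917 ± 194 rescaled TPM (SD, n = 6) and was 12.9 times ANGPTL4, from 6.74 in replicate 2 to 27.4 in replicate 5. GPIHBP1, which anchors LPL to capillary endothelium, had 51.9 ± 13.0 (SD, n = 6). STRA6, the retinol receptor for RBP4, was at or below 0.225 rescaled TPM and was detected in none of the 6 libraries, while TTR, the plasma partner of RBP4, had 12.4 ± 5.41 (SD, n = 6). APLNR, the apelin receptor, was detected in 5 of 6 libraries. It had 1.17 to 14.5 rescaled TPM over all 6, lowest in replicate 4, where it lay under the stricter limit. ANGPTL8, a partner of ANGPTL proteins, was listed at 0 in 3 libraries.

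**Figure D5:**
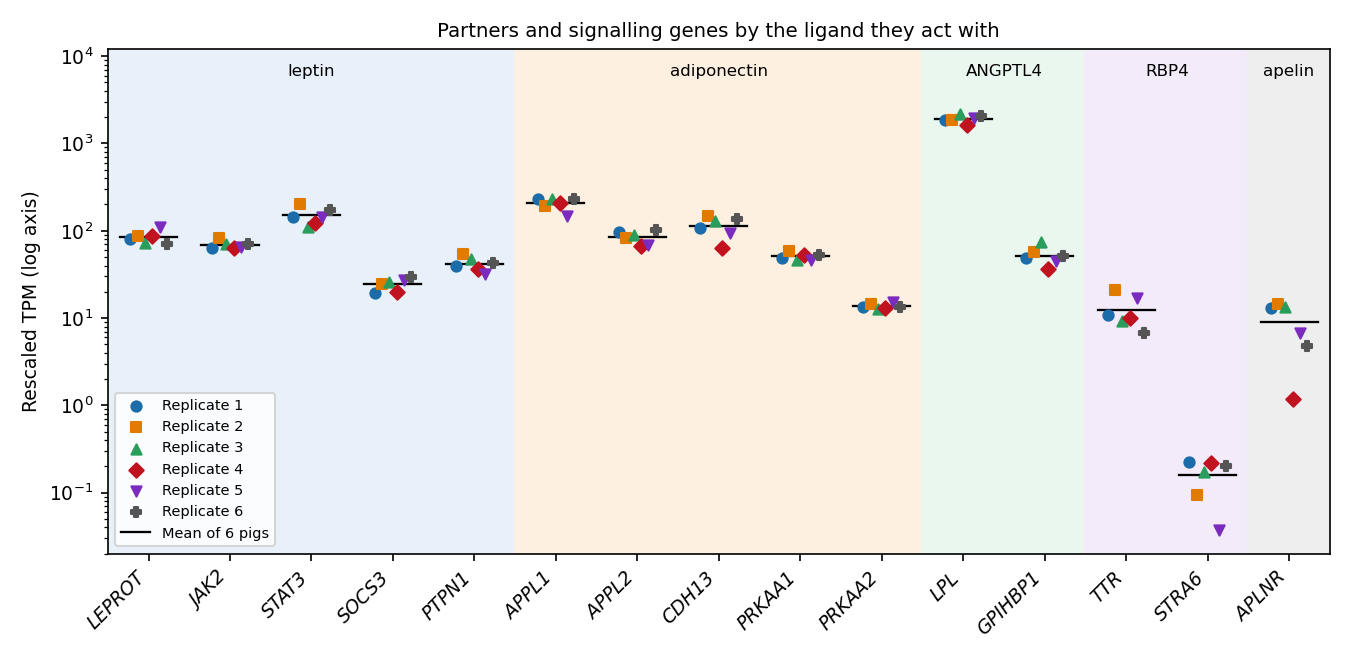
Rescaled TPM (log axis) of partner and signalling genes in each of the 6 pig libraries, grouped by the ligand they act with, with a bar at the mean. LPL lies highest at 1611 to 2169, STRA6 lowest at 0.0378 to 0.225, and APLNR has 1.17 in replicate 4 against 4.85 to 14.5 in the other 5.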

How the data were processed

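Total RNA of the pig samples was depleted of ribosomal RNA, and stranded libraries were sequenced in paired ends. The authors computed TPM per gene with Kallisto 0.43.0, for the genome Sscrofa11.1, and deposited 1 table per species. The annotation release was not given in the sources used here. The 6 pig libraries were used. The rat table was not used, since the name table pairs none of its IDs with symbols. The name table paired 14857 of 25880 pig IDs, of which 13 were mitochondrially encoded. TPM were rescaled so that the 14844 named nuclear IDs summed to 1000000 in each library. Detection was over 0.1 TPM as deposited, as in the study's methods. Coordinates are 1-based RefSeq gene models of Sscrofa11.1, with the exons of the longest transcript.

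The members and gene lists were chosen with earlier results of these data known. Ratios were tested over the 6 pigs by an exact two-sided sign-flip permutation test (64 sign flips) with Benjamini-Hochberg adjustment at 0.05. Of the 36 pairs planned, 28 could be formed, since APLN was not analysed here. The genes named are the members, the 3 genes nearest to each by SD of the log2 ratio with a mean of at least 10 rescaled TPM, and, of each list, the partners, the 3 highest and those detected in no pig. Some genes that this rule covers are not reported here. No other test was run. Alternatives were other scalings, pseudocounts of 1 and 0.1, other minimum levels and leaving out libraries. The functions were tested on simulated data. Python 3.11.15, numpy 2.4.6, pandas 2.3.3, scipy 1.17.1 and matplotlib 3.10.9 were used.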

Additional observations from a re-analysis of the deposited data

Results flagged for a closer look

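Each of the 8 genes was examined for a library apart from the others, by Dixon's ratio, both as deposited and rescaled, which made 16 sets of 6 values. A library stood apart in 5 of them, where chance gives about 1 set in 20, and the 2 scales of a gene are not independent. LEP was highest in replicate 3, at 564 rescaled TPM and 148 TPM as deposited. LEPR was highest in replicate 2, at 19.7 rescaled TPM and 4.74 TPM as deposited. RBP4 was lowest in replicate 5, at 37.0 rescaled TPM, which was no longer its lowest library after median-centring.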

How the results depend on the processing

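The 24 pairs with 1 direction stayed at 24 with pseudocounts of 1 and 0.1, were 24 to 26 with any 1 replicate left out, 25 without replicates 4 and 5, and 17 of 21 among genes with a mean of at least 10 rescaled TPM. The direction of every pair that passed was kept under all of these. With 5 or 4 pigs the exact test cannot pass 0.05, so only values were computed there. The ratios are themselves taken within each pig. No paired analysis was possible because no groups of samples were compared: pigs and rats share replicate numbers, but the rat table was not used. The median CV of the 8 genes was 0.670 as deposited, a scale that keeps the small named nuclear share of replicates 4 and 5. It was 0.284 after median-centring, 0.258 per adipocyte marker, 0.191 without replicates 4 and 5, and 0.219 to 0.292 with any 1 replicate left out. Mean levels of all 8 genes were lower as deposited and after median-centring, since those scales have another total (LEPR 1.55 and 1.40, against 7.24). Depth is unknown, so no counting error can be given, and LEPR, near the detection limit in replicates 4 and 5, is the least certain of the levels.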

Other observations

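Other secreted factors of fat were examined in the same libraries. Of 34 listed, 27 could be analysed and 22 were detected in every library, against 67.2% of named nuclear genes, with a median of means of 55.8 rescaled TPM. SPARC, a matrix-binding protein, was the highest at 8135 ± 2356 (SD, n = 6), above ADIPOQ in mean. GPX3, the extracellular glutathione peroxidase, had 1843 on average and ran from 231 to 4704 between pigs, and AGT, the precursor of angiotensin, had 925 ± 309 (SD, n = 6). CFD, which encodes the complement protease adipsin, had 434 ± 75.5 (SD, n = 6), and ADIPOQ was 6.91 times CFD as a geometric mean. CFD was above LEP in 5 of 6 pigs, the exception being replicate 3 at 0.720 times LEP. RETN, which encodes resistin, was detected in none of the 6 libraries and was listed at 0 in 5 of them.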
